A study of Mus musculus with 20 samples.

Results

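Metalloproteinases are zinc-dependent enzymes that cut proteins of the extracellular matrix and of the cell surface, and the tissue inhibitors of metalloproteinases (TIMPs) bind their active sites. The 10 genes described here, found by symbol, are 3 matrix metalloproteinases (Mmp3, Mmp9, Mmp14), 3 ADAMTS proteases, which carry thrombospondin repeats (Adamts1, Adamts4, Adamts9), and the 4 TIMPs (Timp1, Timp2, Timp3, Timp4). All 10 were found among the 55487 genes of a prefrontal cortex count table and among the 57180 genes of a hippocampal one. In brain these enzymes act on the chondroitin sulphate proteoglycans around neurons and on the basement membrane of blood vessels, and several are known to be induced in inflammation. Most are made as inactive precursors, so the transcript level is not the activity of the enzyme.

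The series measured poly(A)-selected RNA in 20 libraries from mice of the inbred strain C57/BL6, all wild type and aged 2 to 6 months. Prefrontal cortex of males was taken 24 hours after an injection into the peritoneum of lipopolysaccharide (LPS), the endotoxin of Gram-negative bacteria and a strong trigger of inflammation, at 5 mg/kg (n = 4), or after 0.9% saline (n = 4). The other tissue, hippocampus, was collected at 24 hours from animals given either nicotine (0.2 mg/kg) or saline (0.9%), with 6 in each group and no route or sex stated. No group carried a transgene or a deletion, and each tissue had a table and a batch of its own, so LPS was not tested against nicotine.

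In 4 of the 8 prefrontal cortex records the title named the opposite treatment to the count column it pointed to. Groups follow the column names, and every statement on LPS below rests on that choice: grouped by title, 0 of the 10 genes and 0 of all genes passed the test. The labels agree for saline replicates 1 and 2 and LPS replicates 3 and 4. With these 4 libraries, 5 of the 10 were higher with LPS. Over all genes, 2826 of 17883 tested were higher and 2864 lower in that fit. Total counts ranged from 36371084 to 46106526 in prefrontal cortex and from 51969343 to 68196280 in hippocampus. The labelled tissues showed their markers, with a summed level of 416 to 730 CPM (counts per 1e6, with libraries scaled by the trimmed mean of M-values, TMM) for the cortical list in prefrontal cortex and 638 to 1001 CPM for the hippocampal list in hippocampus. Striatal markers varied within the prefrontal cortex groups, from 208 to 1022 CPM with saline and from 287 to 1329 CPM with LPS. In hippocampus, Ttr, which choroid plexus makes in large amounts, exceeded 1000 CPM in saline replicates 2 and 5 and in nicotine replicates 4 and 5.

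The promoters of the 4 genes with the largest rises after LPS among the 8 that had an entry in the RefSeq table are shown to set the sequence beside the response described next. Each window runs from 250 bases before to 50 bases after the RefSeq transcript start in GRCm38.p6, and is written 5′ to 3′ on the gene's strand. Mmp3 lies at chr9:7445572-7445871 (plus strand), Timp1 at chrX:20869916-20870215 (plus), Adamts1 at chr16:85803064-85803363 (minus) and Adamts9 at chr6:92943485-92943784 (minus). Capitals mark matches on either strand to AP-1 (TGANTCA), C/EBP (TTGCNNAA), STAT (TTCNNNGAA), the TATA box (TATAAA) or an NF-kB motif.
Mmp3: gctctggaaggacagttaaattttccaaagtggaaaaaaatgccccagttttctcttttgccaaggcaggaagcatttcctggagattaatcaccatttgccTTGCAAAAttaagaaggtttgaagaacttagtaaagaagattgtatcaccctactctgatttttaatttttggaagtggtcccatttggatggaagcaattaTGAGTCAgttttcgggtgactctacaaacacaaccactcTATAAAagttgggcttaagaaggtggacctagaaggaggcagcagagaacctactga
Timp1: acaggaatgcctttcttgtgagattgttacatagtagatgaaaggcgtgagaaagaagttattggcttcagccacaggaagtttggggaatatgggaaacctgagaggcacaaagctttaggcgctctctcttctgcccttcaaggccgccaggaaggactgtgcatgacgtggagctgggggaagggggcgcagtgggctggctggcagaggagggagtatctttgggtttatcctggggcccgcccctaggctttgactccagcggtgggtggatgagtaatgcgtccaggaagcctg
Adamts1: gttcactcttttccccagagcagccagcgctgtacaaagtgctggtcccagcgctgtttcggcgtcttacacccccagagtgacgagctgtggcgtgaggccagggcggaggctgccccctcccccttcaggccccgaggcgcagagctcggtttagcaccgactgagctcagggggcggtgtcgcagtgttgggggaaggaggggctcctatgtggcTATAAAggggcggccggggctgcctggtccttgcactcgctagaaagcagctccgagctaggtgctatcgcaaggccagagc
Adamts9: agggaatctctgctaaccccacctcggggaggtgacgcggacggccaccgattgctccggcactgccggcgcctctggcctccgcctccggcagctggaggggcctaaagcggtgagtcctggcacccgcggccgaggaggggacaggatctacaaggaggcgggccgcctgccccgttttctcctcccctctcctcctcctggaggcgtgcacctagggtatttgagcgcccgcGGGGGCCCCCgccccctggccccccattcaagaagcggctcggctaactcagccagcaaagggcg

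The Mmp3 window held an AP-1 match at bases 205 to 211, a C/EBP match at bases 103 to 110 and a TATA box at bases 244 to 249, counted from 1 at the 5′ end of the window. The Adamts1 window held a TATA box at bases 219 to 224, and that of Adamts9 an NF-kB match at bases 236 to 245. Neither the Timp1 window nor those of Timp2, Timp3, Timp4 and Mmp14 held any of the 5 motifs. Among 32851 promoter windows of the same length, 7.81% held an AP-1 match, 10.8% a C/EBP match, 8.3% a STAT match, 13.6% the TATA box and 8.46% the NF-kB motif. None of these matches overlapped another, and a match is a description of the letters, not evidence of binding.

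In prefrontal cortex 7 of the 10 genes were higher after LPS, 0 were lower and 3 did not pass the test, where 21.5% of the 17760 genes tested were higher and 19.7% lower (edgeR quasi-likelihood test, adjusted p under 0.05). The rises were of very unequal size. Mmp3 and Timp1 rose most, Adamts1 and Adamts9 rose about 8-fold, Mmp9 rose about 3-fold, and Mmp14 and Timp2 rose by less than 1.5-fold. The same 7 genes had all 4 LPS libraries above all 4 saline libraries, against 19.2% of genes tested, and none had all LPS libraries below, against 17.9%. The median log2 fold change was 0.99 over the 10 genes and 0.0092 over all genes tested. The 10 genes were chosen with earlier results of these data known, so this contrast with all genes is a description only. In whole tissue, a change in RNA per cell cannot be told apart from a change in the number of cells of a type.

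**Figure D1:**
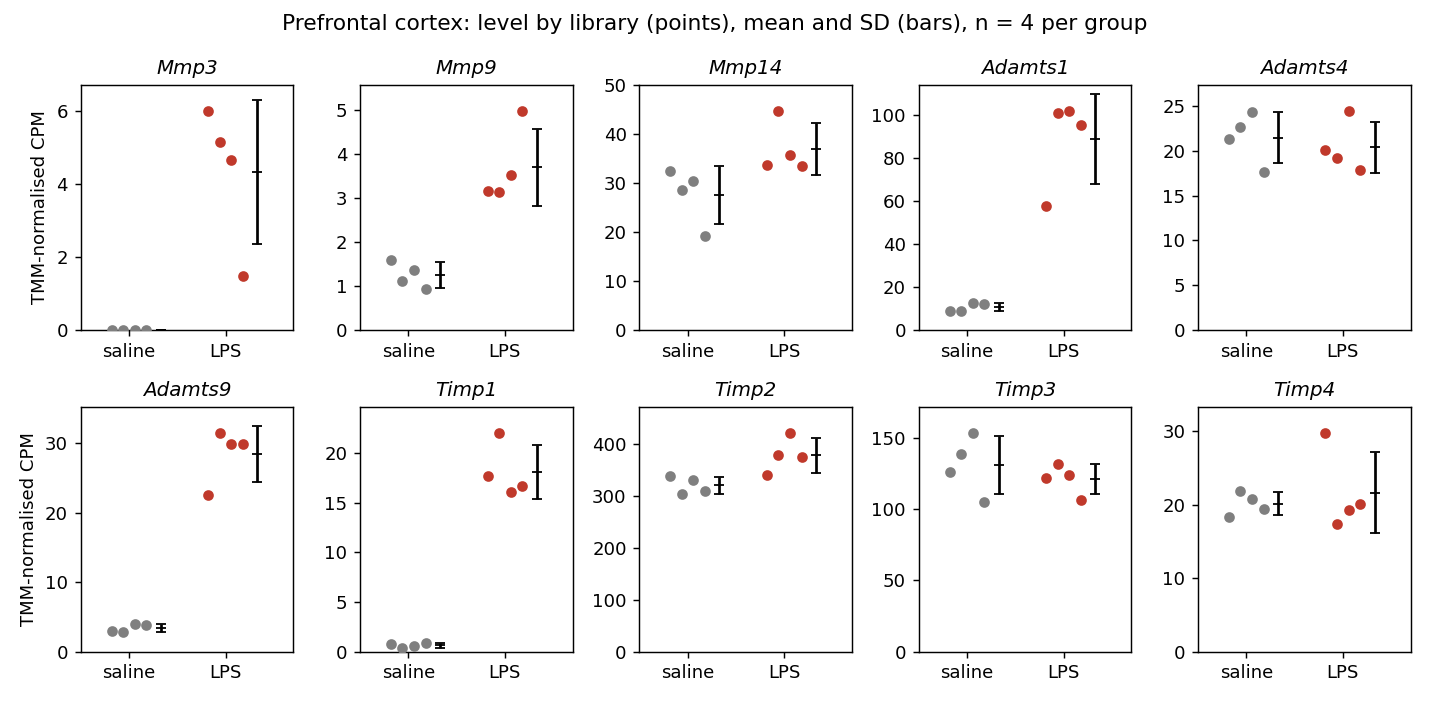
Level of each gene in prefrontal cortex, in TMM-normalised counts (CPM) on a linear axis from 0, with 1 point per library and the mean and SD beside each group (n = 4). LPS libraries lie wholly above saline libraries for Mmp3, Mmp9, Mmp14, Adamts1, Adamts9, Timp1 and Timp2, and the groups overlap for Adamts4, Timp3 and Timp4.

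Mmp3, or stromelysin-1, cuts many matrix proteins and activates other metalloproteinase precursors, including that of Mmp9. It was not detected in saline, with 0 counts over the 4 libraries, which allows up to 0.0181 CPM for the group at a limit of 3 counts. The LPS libraries, numbered 1 to 4 in accession order as are those of saline, held 6.00, 5.16, 4.66 and 1.48 CPM, from 708 counts in all. Replicate 4 was lowest, well below the others, yet clearly above 0. By counts summed over each group and divided by its summed library size, 708 against a limit of 3, Mmp3 was at least 241-fold higher with LPS (edgeR adjusted p = 6.21e-05). Such limits cover counting error only, not the spread between libraries, and PCR copies of a molecule are not told apart.

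Mmp9, gelatinase B, degrades type IV collagen and gelatin and is known for its role in synaptic remodelling and in neutrophils. Its level was 1.59, 1.10, 1.35 and 0.927 CPM with saline and 3.14, 3.12, 3.52 and 4.96 CPM with LPS. Every LPS library was near or above 2 times the highest saline library, and replicate 4, the lowest for Mmp3, was the highest for Mmp9. The rise was 2.96-fold (95% confidence interval 2.08 to 4.21, edgeR adjusted p = 3.99e-04).

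Because neutrophils store Mmp9, their markers were read in the same libraries. The summed level of 10 neutrophil markers was 1.46 to 5.14 CPM with saline and 4.37 to 9.40 CPM with LPS. Of the 3 that were abundant enough to test, 2 were higher, among them the calprotectin subunit S100a8, which went from 0.701 to 2.52 CPM (edgeR adjusted p = 8.17e-04). Of the markers too low to test, Ltf went from 50 to 27 counts, Mpo from 22 to 15, Cxcr2 from 16 to 11 and Elane from 4 to 2, while Retnlg went from 5 to 30 and Camp from 12 to 18. Ly6g, a defining neutrophil surface marker, had 0 counts in the saline libraries and 1 count in the LPS libraries. The part of neutrophil RNA in the Mmp9 result was not tested.

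Mmp14, a membrane-anchored enzyme that activates the precursor of Mmp2 at the cell surface, differed only slightly. Saline libraries held 32.4, 28.6, 30.5 and 19.1 CPM and LPS libraries 33.7, 44.7, 35.7 and 33.6 CPM. The groups did not overlap, but saline replicate 1 lay close to the lowest LPS libraries, and saline replicate 4 was far below the other saline libraries. The fold was 1.34 (1.06 to 1.69, edgeR adjusted p = 0.0478), and the call was lost on leaving out saline replicate 2, 3 or 4 or LPS replicate 2, 3 or 4, with adjusted p values of 0.0350 to 0.164 over the 8 fits that each left out 1 library.

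Adamts1 and Adamts9 rose by nearly the same factor from different starting levels. Adamts1, which cleaves aggrecan and versican, went from 8.85, 8.89, 12.4 and 12.2 CPM to 57.8, 101, 102 and 95.6 CPM. LPS replicate 1 stood apart below the other LPS libraries, but was still more than 4 times the highest saline library. The change was 8.38-fold (6.28 to 11.2, edgeR adjusted p = 1.12e-06). Adamts9, another proteoglycan-cleaving member of the family, went from 2.97, 2.80, 3.95 and 3.85 CPM to 22.6, 31.5, 29.9 and 29.9 CPM, a rise of 8.36-fold (6.62 to 10.5, edgeR adjusted p = 2.78e-07). LPS replicate 1 was again the lowest of its group. Adamts9 shares exon sequence on the opposite strand with A730049H05Rik (1381 bp) and Gm15737 (424 bp), so part of its count is uncertain if strand was ignored.

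Adamts4, which cleaves aggrecan and brevican, did not pass the test. It measured 21.3, 22.7, 24.3 and 17.7 CPM with saline and 20.1, 19.2, 24.4 and 17.9 CPM with LPS, and the 2 ranges nearly coincided. The fold was 0.949 (0.784 to 1.15, edgeR adjusted p = 0.661), an interval that does not reach the folds of Adamts1 or Adamts9.

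Timp1 had the largest rise of the inhibitors. This secreted protein inhibits most soluble matrix metalloproteinases but is a weak inhibitor of Mmp14. Saline libraries held 0.769, 0.323, 0.571 and 0.903 CPM, from 107 counts in all, and LPS libraries 17.6, 22.0, 16.0 and 16.6 CPM. The lowest LPS library was more than 10 times the highest saline library. Timp1 rose 27.9-fold (19.4 to 40.2, edgeR adjusted p = 2.78e-07).

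Timp2 both inhibits Mmp14 and takes part in activating Mmp2. It was the most abundant of the 10 genes and had the smallest rise of the 7 called higher. Its level was 337, 302, 330 and 309 CPM with saline and 339, 378, 421 and 374 CPM with LPS. LPS replicate 1 and saline replicate 1 were almost equal. The fold was 1.18 (1.05 to 1.32, edgeR adjusted p = 0.0237), and without saline replicate 2 or 4, or LPS replicate 2 or 3, the call was lost (adjusted p 0.00630 to 0.0951 over the fits that left out 1 library each).

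Timp3, which binds the matrix and inhibits ADAMTS enzymes as well as matrix metalloproteinases, measured 126, 139, 153 and 105 CPM with saline and 122, 131, 124 and 106 CPM with LPS. The LPS range lay within the saline range, with a fold of 0.924 (0.784 to 1.09, edgeR adjusted p = 0.433). Timp4, expressed mainly in brain and heart, measured 18.4, 21.9, 20.8 and 19.5 CPM with saline and 29.8, 17.4, 19.3 and 20.2 CPM with LPS. Only LPS replicate 1 lay above the saline range, and the fold was 1.08 (0.854 to 1.36, edgeR adjusted p = 0.610). Without that library the log2 fold change of Timp4 was -0.09.

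**Figure D2:**
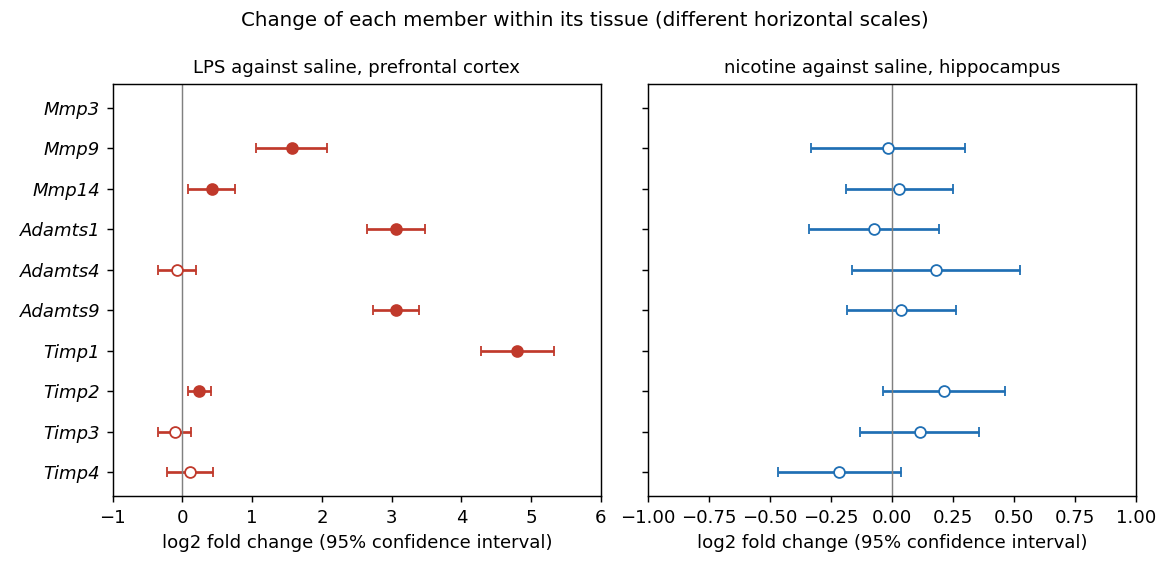
Log2 fold change with its 95% confidence interval for each gene, LPS against saline in prefrontal cortex (left) and nicotine against saline in hippocampus (right, finer scale); filled points passed an adjusted p of 0.05. Mmp3 has no point because saline libraries or all libraries held 0 counts, and Timp1 has none in hippocampus because it was too low to test. In prefrontal cortex the remaining rises that passed run from 1.18-fold for Timp2 to 27.9-fold for Timp1. In hippocampus every interval includes 0.

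Levels were compared between genes per kilobase of exon, with all annotated exons of a gene merged. The order of genes with close levels depends on these lengths. In saline prefrontal cortex Timp2 was first at 82.1 ± 4.25 CPM per kb (SD, n = 4) and Timp3 second at 16.1 ± 2.51. Mmp14 (4.64 ± 0.990), Adamts4 (4.47 ± 0.588) and Timp4 (3.42 ± 0.262) followed, each overlapping the next. Adamts1 came next at 2.00 ± 0.377 CPM per kb. Timp1 (0.722 ± 0.284), Mmp9 (0.351 ± 0.0819) and Adamts9 (0.226 ± 0.0392) were low, again with neighbours overlapping, and Mmp3 was last at 0.

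With LPS the order per kilobase changed below Timp2, which stayed first at 97.0 ± 8.59 CPM per kb. Timp1 was second at 20.4 ± 3.04, then Adamts1 at 16.8 ± 3.97 and Timp3 at 14.9 ± 1.29, and each of these overlapped the next. Mmp14 followed at 6.20 ± 0.884, apart from both its neighbours. Adamts4 (4.24 ± 0.591), Timp4 (3.67 ± 0.939), Mmp3 (2.40 ± 1.10) and Adamts9 (1.89 ± 0.265) overlapped in turn, and Mmp9 was last at 1.04 ± 0.246 CPM per kb.

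The summed transcripts of the 4 TIMPs exceeded those of the 6 proteases per kilobase in every library. Summed over the 4 TIMPs, the level was 102 ± 5.45 CPM per kb with saline and 136 ± 8.23 with LPS. The 6 proteases together held 11.7 ± 1.45 CPM per kb with saline and 32.6 ± 4.60 with LPS. The ratio of the sums was 8.19 to 9.95 in saline libraries and 3.88 to 4.796 in LPS libraries, with no overlap. Timp1 made up 0.709% ± 0.294 of the TIMP sum with saline and 15.0% ± 2.15 with LPS, while Adamts1 made up 17.4% ± 4.61 and 51.0% ± 6.87 of the protease sum. Both sums leave out related genes, so the ratio is not that of all inhibitors to all proteases. Mmp17, named here for its level, held 32.7 CPM per kb with saline and 25.9 with LPS. It was lower with LPS (edgeR adjusted p = 0.00934), and with saline it alone exceeded the sum of the 6 proteases. The ratio and its difference between the groups therefore depend on which proteases are summed. These sums describe transcripts of genes chosen with the results known and carry no test.

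**Figure D3:**
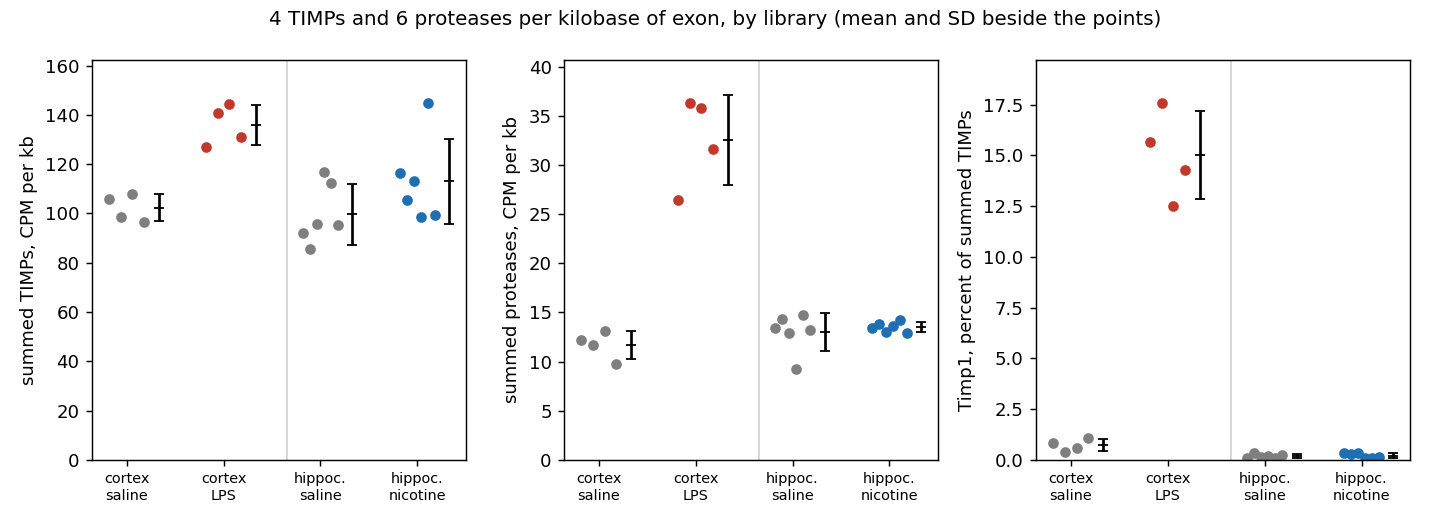
Summed levels of the 4 TIMPs and of the 6 proteases per kilobase of exon, and the percentage of the TIMP sum held by Timp1, with 1 point per library and the mean and SD beside each group (n = 4 in cortex, n = 6 in hippocampus). All LPS libraries lie above the saline cortex libraries in all 3 panels, and the hippocampal groups overlap; the tables of the 2 tissues were normalised separately.

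Of the 4 TIMP genes, 3 lie within synapsin genes, which encode synaptic vesicle proteins, on the opposite strand. By GENCODE vM21 on mm10, Timp1 (chrX:20870166-20874735, plus strand) lies within Syn1 and shares no exon sequence with it. Timp4 (chr6:115241892-115252205, minus strand) lies within Syn2 and shares 90 bp of exon, which is 1.53% of its own exon length. Timp3 (chr10:86300372-86349506, plus strand) lies within Syn3 and shares 1733 bp, or 21.3%, so its counts and those of Syn3 cannot be fully told apart without strand information.

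None of the 3 host genes passed the test after LPS. Syn1 measured 882 to 1089 CPM with saline and 969 to 1052 CPM with LPS, overlapping groups with a fold of 1.05 (0.934 to 1.17, edgeR adjusted p = 0.516), while the Timp1 gene within it rose 27.9-fold. Syn2 went from 430 ± 33.3 to 375 ± 27.7 CPM (fold 0.871, 0.775 to 0.978, edgeR adjusted p = 0.0555), and Syn3 from 17.4 ± 3.43 to 18 ± 2.72 CPM (fold 1.04, 0.821 to 1.30, edgeR adjusted p = 0.817).

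The counts of related genes in prefrontal cortex stand beside 21.5% higher and 19.7% lower over all genes tested. Among 18 other matrix metalloproteinases, 11 were abundant enough to test, 1 rose, 6 fell and 4 did not pass, with a median log2 fold change of -0.37. Mmp12, macrophage elastase, rose from 0.0504 ± 0.0450 to 1.44 ± 1.15 CPM, on 8 and 239 counts, or 28.0-fold (9.33 to 84.3, edgeR adjusted p = 4.27e-04). Mmp15, a membrane-anchored relative of Mmp14, fell from 26.0 ± 5.29 to 14.5 ± 2.39 CPM (edgeR adjusted p = 0.00167). Mmp11, stromelysin-3, fell from 2.24 ± 0.359 to 1.08 ± 0.152 CPM (edgeR adjusted p = 0.00277), and Mmp24, another membrane-type enzyme, from 63.8 ± 6.07 to 51.7 ± 0.819 CPM (edgeR adjusted p = 0.00907).

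Mmp8 and Mmp13, both collagenases, were too low to pass the filter and are named after their values were seen. Mmp8 had 5 counts with saline and 52 with LPS, and Mmp13 had 11 and 53, with every LPS library above every saline library for both. When no filter was applied, or with DESeq2, 3 of the other matrix metalloproteinases were higher in place of 1. With a filter of 1 CPM in 4 libraries, which Mmp12 did not pass, 0 were higher.

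Of 16 other ADAMTS genes, all were tested, 3 rose and 4 fell, near the shares over all genes, with a median log2 fold change of 0.06. Adamts14 and Adamts2 process procollagens. Adamts14 rose from 0.252 ± 0.123 to 1.2 ± 0.164 CPM (4.76-fold, 2.75 to 8.26, edgeR adjusted p = 6.34e-04), and Adamts2 from 11.2 ± 0.589 to 17.8 ± 2.93 CPM (1.59-fold, 1.31 to 1.92, edgeR adjusted p = 0.00162). Adamts20 rose 1.49-fold (1.16 to 1.91, edgeR adjusted p = 0.0149), a call lost without LPS replicate 2 (adjusted p = 0.0501). Adamts8, Adamts10 and Adamts19 fell, with log2 fold changes of -0.75 (SE 0.19), -0.49 (SE 0.13) and -0.91 (SE 0.24).

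Of the ADAM proteases, which shed the outer parts of membrane proteins, 2 of 8 tested rose and 1 fell, near the shares over all genes, with a median log2 fold change of -0.09. Adam15 rose from 72.8 ± 5.11 to 99.6 ± 7.79 CPM (edgeR adjusted p = 9.50e-04). Adam9 had a fold of 1.16 (1.04 to 1.29, edgeR adjusted p = 0.0301) whose call held in 1 of the 8 fits that left out a library, the one without LPS replicate 4. Adam19 fell from 20.6 ± 3.00 to 9.43 ± 3.62 CPM (edgeR adjusted p = 0.00185).

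Other inhibitors and clearance receptors included 6 tested genes, of which 2 rose and 0 fell, with a median log2 fold change of 0.24. A2m, the broad protease trap alpha-2-macroglobulin, rose from 4.11 ± 1.01 to 20.2 ± 6.02 CPM (4.91-fold, 3.48 to 6.92, edgeR adjusted p = 3.02e-05). Spock1, a proteoglycan also called testican-1, rose from 272 ± 48.6 to 407 ± 28.3 CPM (1.5-fold, 1.26 to 1.78, edgeR adjusted p = 0.00210).

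The plasminogen system and the proprotein convertases, which can activate metalloproteinase precursors, had 10 tested genes, of which 4 rose and 3 fell, with a median log2 fold change of 0.16. Plaur, the urokinase receptor, rose from 1.11 ± 0.267 to 12.9 ± 4.30 CPM (11.6-fold, 7.54 to 17.8, edgeR adjusted p = 6.68e-06), and Plat, tissue plasminogen activator, from 30.3 ± 1.73 to 65.5 ± 11.9 CPM (2.16-fold, 1.80 to 2.60, edgeR adjusted p = 5.26e-05). The convertase Pcsk7 rose 1.66-fold (1.41 to 1.96, edgeR adjusted p = 3.56e-04). In the other direction, the convertase Pcsk6 had a log2 fold change of -0.68 (SE 0.12), the protease inhibitor Serpine2 of -0.29 (SE 0.07) and the urokinase gene Plau of -1.34 (SE 0.37), all past the threshold. Plau and its receptor Plaur thus changed in opposite directions.

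**Figure D4:**
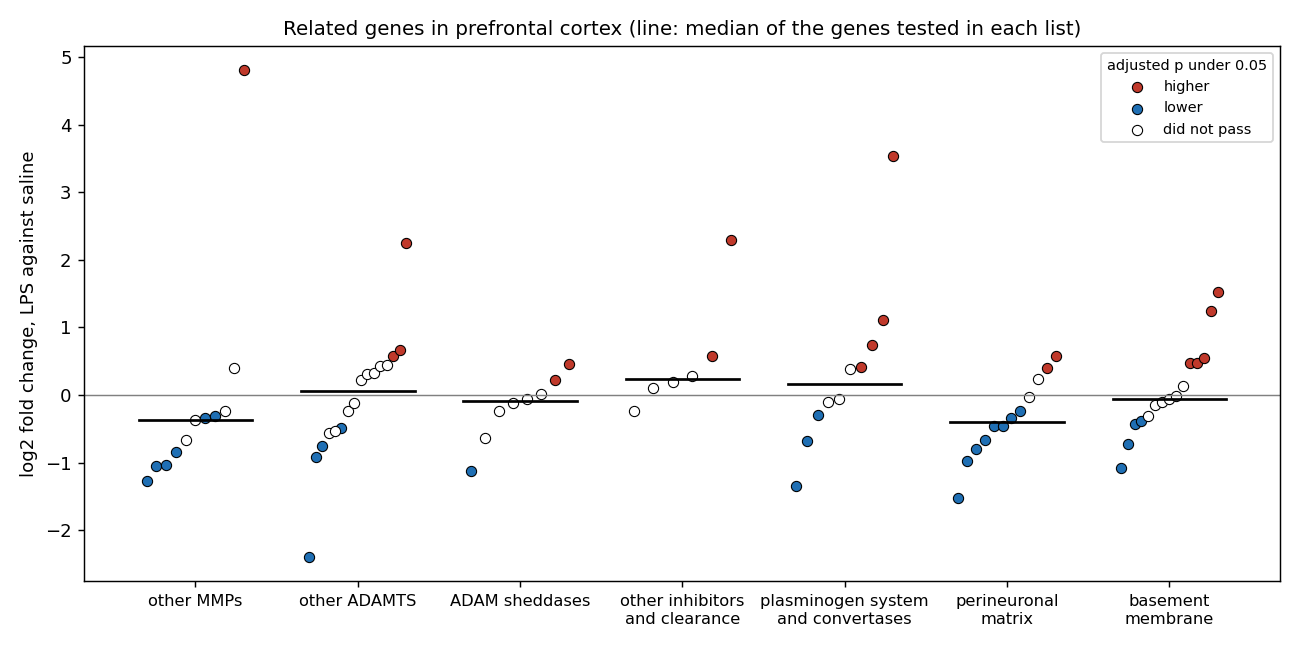
Log2 fold change after LPS in prefrontal cortex for every tested gene of 7 related lists, with 1 point per gene ordered within its list, filled where the adjusted p was under 0.05 (red higher, blue lower), and a line at the median of each list. The medians run from -0.40 for the perineuronal matrix to 0.24 for the other inhibitors, and single genes such as Mmp12 and Plaur lie far above their lists.

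Substrates were read in the same way. The perineuronal matrix is the proteoglycan coat of neurons that ADAMTS enzymes and matrix metalloproteinases cleave. Of 12 genes in a list of perineuronal and related matrix genes, 8 fell and 2 rose, with a median log2 fold change of -0.40. Ncan (neurocan) fell from 378 ± 37.2 to 276 ± 2.46 CPM (edgeR adjusted p = 6.85e-04) and Cspg5 (neuroglycan C) from 383 ± 28.4 to 278 ± 19.5 CPM (edgeR adjusted p = 6.93e-04). The link protein gene Hapln3 fell from 2.60 ± 0.337 to 0.906 ± 0.0831 CPM (edgeR adjusted p = 1.84e-04). The link proteins Hapln2 and Hapln4 rose 1.49-fold (1.18 to 1.89) and 1.32-fold (1.09 to 1.6), and the call for Hapln4 was lost without saline replicate 2 or 3 or LPS replicate 4 (adjusted p up to 0.0822). Neither passed a test against a 1.2-fold change.

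Among 15 basement membrane genes, 5 rose and 4 fell, with a median log2 fold change of -0.06. The type IV collagen chains Col4a1 and Col4a2, which Mmp9 can degrade, rose from 35.7 ± 1.44 to 103 ± 15.3 CPM (2.87-fold, 2.46 to 3.35, edgeR adjusted p = 1.94e-06) and from 41.0 ± 2.36 to 96.8 ± 8.40 CPM (2.36-fold, 2.09 to 2.67, edgeR adjusted p = 1.44e-06). The laminin chain Lamc1 rose 1.47-fold (1.16 to 1.86), a call lost without saline replicate 2 or LPS replicate 2 or 3 (adjusted p up to 0.0578). Fn1 (fibronectin) fell from 90.2 ± 8.89 to 42.5 ± 6.61 CPM (edgeR adjusted p = 4.35e-05), and the laminin chains Lamb2 and Lama2 had log2 fold changes of -0.43 (SE 0.11) and -0.39 (SE 0.11), both past the threshold.

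Markers of cells that can make these genes were read beside the shares over all genes, 21.5% higher and 19.7% lower. Of 8 endothelial markers, 4 rose and 1 fell. Their summed level was 169 to 214 CPM with saline and 213 to 257 CPM with LPS, ranges that overlapped slightly. Of 6 microglial markers, 0 rose and 4 fell, with a sum of 393 to 421 CPM with saline and 250 to 298 CPM with LPS. Mural cell markers summed to 179 to 226 CPM with saline and 140 to 189 CPM with LPS, overlapping ranges, with 0 of 8 higher and 1 lower. Of 7 astrocyte markers, 2 rose and 2 fell. Of 6 fibroblast markers tested, 1 rose and 2 fell, and of 8 oligodendrocyte markers 0 rose and 2 fell. The part of these cells in the changes of proteases, inhibitors and matrix genes was not tested.

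In hippocampus 24 hours after nicotine, none of the 10 genes differed between groups by the test. Of the 8 abundant enough to test, 0 were called higher, where 0% of the 18873 genes tested were called higher, and 0 lower, where 0% were (edgeR adjusted p under 0.05). At an unadjusted p under 0.05, 0 of the 8 passed, against 8.36% of all genes. DESeq2 called 8 genes higher and 7 lower over the whole table and none of these 10. For none of them did the nicotine libraries lie wholly above the saline libraries (0.17% of genes) or wholly below (0.217%), and the median log2 fold change of the 8 was 0.03.

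**Figure D5:**
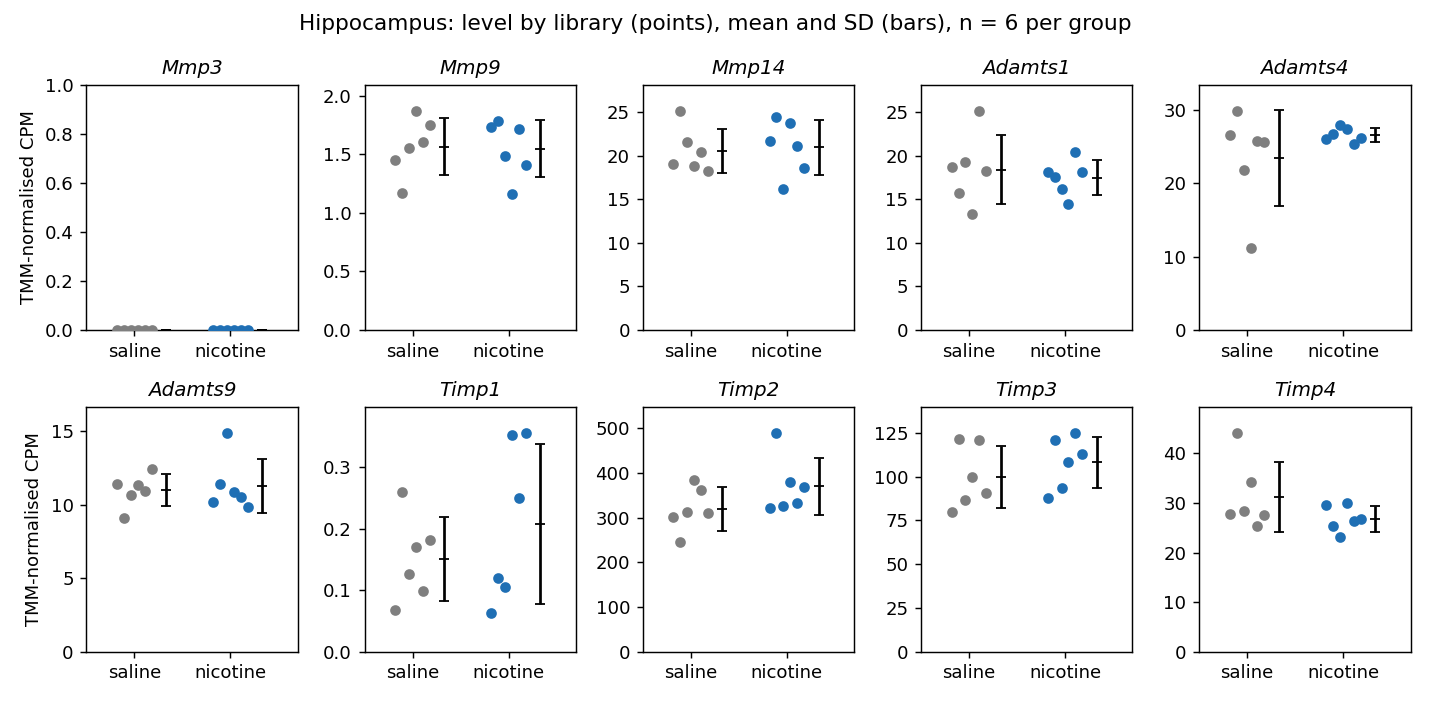
Level of each gene in hippocampus, in TMM-normalised counts (CPM) on a linear axis from 0, with 1 point per library and the mean and SD beside each group (n = 6). Saline and nicotine libraries overlap for every gene, Mmp3 is at 0 in all 12 libraries, and Adamts4 has 1 low saline library at 11.2 CPM.

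Of the 2 genes with the largest rises after LPS in cortex, Mmp3 was not detected in hippocampus and Timp1 was low. Mmp3 had 0 counts in all 12 libraries, which allows up to 0.00847 CPM for the saline group and 0.00853 CPM for the nicotine group. Timp1 had 52 counts over the saline libraries, with 0.0683 to 0.259 CPM in single libraries, and 74 counts over the nicotine libraries, with 0.0626 to 0.356 CPM. It did not pass the filter, and without the filter its log2 fold change was 0.48 (SE 0.45, edgeR adjusted p = 0.715).

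The other hippocampal proteases were level between groups. Mmp9 measured 1.17 to 1.87 CPM with saline (median 1.58) and 1.16 to 1.79 CPM with nicotine (median 1.6). Mmp14 measured 18.3 to 25.1 CPM and 16.1 to 24.4 CPM. Adamts1 measured 13.3 to 25.1 CPM and 14.4 to 20.5 CPM, and Adamts9 measured 9.10 to 12.4 CPM and 9.81 to 14.9 CPM. The groups overlapped for each gene, with nicotine replicate 3 above the rest for Adamts9, and the 95% confidence intervals of the fold were 0.794 to 1.23 for Mmp9, 0.877 to 1.19 for Mmp14, 0.790 to 1.14 for Adamts1 and 0.881 to 1.2 for Adamts9. Changes of the size seen for Adamts1 and Adamts9 after LPS in cortex lay outside these intervals.

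Adamts4 differed between single libraries more than between groups. Saline replicates 1 to 6 held 26.7, 29.9, 21.8, 11.2, 25.8 and 25.7 CPM, and nicotine libraries 25.4 to 28.0 CPM. Saline replicate 4 was the lowest and saline replicate 2 the highest of the 12. The same 2 libraries were the lowest and the highest in the summed level of 8 oligodendrocyte markers, at 2626 and 8318 CPM, with the other saline libraries at 4611 to 5832 CPM and the nicotine libraries at 5041 to 6548 CPM. The fold of Adamts4 was 1.13 (0.891 to 1.44, edgeR adjusted p = 0.763), and its log2 fold change went from 0.18 to 0.04 without saline replicate 4. With the oligodendrocyte marker level as a covariate, a fit chosen after seeing the data, it was 0.11. Saline replicate 5 had a marker sum of 4611 CPM with Adamts4 at 25.8 CPM. Saline replicate 3 had the higher marker sum, 5207 CPM, and the lower Adamts4, 21.8 CPM. The part of oligodendrocyte RNA in the level of Adamts4 was not tested.

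Of the hippocampal inhibitors, Timp2 measured 301, 244, 312, 384, 362 and 309 CPM with saline and 322, 490, 327, 380, 333 and 368 CPM with nicotine. The lowest was saline replicate 2 and the highest nicotine replicate 2, and the ranges overlapped, with a fold of 1.16 (0.975 to 1.38, edgeR adjusted p = 0.626). Timp4 measured 27.7, 44.1, 28.3, 34.3, 25.3 and 27.6 CPM with saline and 29.6, 25.4, 23.0, 29.9, 26.3 and 26.8 CPM with nicotine. Saline replicate 2 was again the extreme, this time the highest, and the fold was 0.860 (0.722 to 1.02, edgeR adjusted p = 0.623). Timp3 measured 79.6 to 121 CPM and 87.7 to 125 CPM, with a fold of 1.08 (0.914 to 1.28, edgeR adjusted p = 0.787).

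Saline replicate 2 and nicotine replicate 2 also stood apart for Syn1, with 506 and 1118 CPM, whereas the other 10 hippocampal libraries held 720 to 789 CPM. Saline replicate 2 was among the 4 libraries with high Ttr, and nicotine replicate 2 was not. The 3 synapsin genes did not pass the test in hippocampus, with edgeR adjusted p values of 0.656 for Syn1, 0.915 for Syn2 and 0.692 for Syn3.

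Per kilobase of exon, the hippocampal order began as in saline cortex. Timp2 was first at 81.9 ± 12.7 CPM per kb with saline and 94.9 ± 16.2 with nicotine (SD, n = 6), and Timp3 second at 12.3 ± 2.18 and 13.3 ± 1.82, each apart from its neighbours. Timp4 (5.30 ± 1.19 and 4.55 ± 0.445), Adamts4 (4.89 ± 1.36 and 5.53 ± 0.196), Adamts1 (3.47 ± 0.748 and 3.30 ± 0.385) and Mmp14 (3.44 ± 0.427 and 3.51 ± 0.526) followed. Neighbours among these 4 overlapped in saline libraries. In nicotine libraries the order was Adamts4, Timp4, Mmp14 and Adamts1, with Adamts4 apart from Timp4 and the others overlapping. Adamts9 (0.729 ± 0.0731 and 0.749 ± 0.123), Mmp9 (0.442 ± 0.0691 and 0.437 ± 0.0687) and Timp1 (0.170 ± 0.0767 and 0.234 ± 0.146) were low. The ratio of the 4 summed TIMPs to the 6 summed proteases was 5.97 to 12.6 with saline and 7.23 to 10.2 with nicotine. Timp1 made up 0.176% ± 0.0941 and 0.208% ± 0.128 of the TIMP sum.

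The related lists gave 0 calls in hippocampus. This held for the other matrix metalloproteinases (10 tested), the other ADAMTS genes (16), the ADAM proteases (8), the other inhibitors (6), the plasminogen system and convertases (10), the perineuronal matrix (12) and the basement membrane (15), whose median log2 fold changes lay between -0.0035 and 0.13. At an unadjusted p under 0.05, 1 other ADAMTS gene, 2 ADAM genes and 1 basement membrane gene passed, and none in the remaining lists.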

How the data were processed

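For each tissue the authors deposited 1 table of unnormalised read counts per gene. Per the labels' protocols, TRIzol was used to extract RNA, and poly(A)-selected libraries came from the NuQuant version of the Universal Plus mRNA-Seq kit. Per the submitters' processing notes, fastp, STAR, featureCounts, DESeq2 and build mm10 were used; versions and roles are not listed. Annotation and strandedness of the counting: not given in the sources used here, so it is not known how reads of overlapping genes were assigned or whether they were dropped. All 20 count columns matched a library, and 51933 of 57180 hippocampal identifiers matched GENCODE vM21, which also gave coordinates and exon lengths.

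The 2 tissues were fitted separately in R 4.3.3 with edgeR 4.0.16 (TMM, filterByExpr, quasi-likelihood F-test, Benjamini-Hochberg adjustment over all genes tested, threshold 0.05). Confidence intervals use the moderated spread between libraries; the median interval of a log2 fold change had a half-width of 0.29 in prefrontal cortex and 0.22 in hippocampus. Libraries are separate animals only as far as the labels show, so p-values measure the spread between libraries. No 2 libraries of a group agreed within sampling noise (lowest chi-square per degree of freedom 11.0). The steps were tested on simulated data.

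The members and lists were chosen with earlier results of these data known. From each list the text names up to 3 higher and 3 lower genes with the smallest p and at least 1 CPM in the higher group. Mmp8, Mmp13 and Mmp17 are named outside this rule. Alternatives were DESeq2 1.42.0, limma-voom (limma 3.58.1), robust edgeR, RLE and upper-quartile factors, other filters, a 1.2-fold threshold, each library left out, a replicate block, marker covariates, leaving out libraries above 1000 CPM of Ttr, and other groupings by label. The oligodendrocyte covariate was chosen after seeing the data. A sex covariate was not run, because all libraries read as male. Some overlaps between neighbouring genes are not reported here.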

Additional observations from a re-analysis of the deposited data

Results flagged for a closer look

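Among the 10 genes and the synapsin genes, single libraries stood apart from their group by Dixon's gap test at 95%, which flags about 1 in 20 groups by chance. Adamts1 was 57.8 CPM in LPS replicate 1 of prefrontal cortex, below the other LPS libraries at 95.6 to 102 CPM. In hippocampus, Adamts9 was 14.9 CPM in nicotine replicate 3, above the other nicotine libraries at 9.81 to 11.4 CPM. Timp2 was 490 CPM in nicotine replicate 2, with the others at 322 to 380 CPM, and Syn1 was 1118 CPM in the same library, with the others at 720 to 789 CPM. Syn1 was 506 CPM in saline replicate 2, with the other saline libraries at 720 to 774 CPM.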

How the results depend on the processing

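Grouped by title in place of column name, 0 genes of the set were called higher, and the log2 fold changes were -0.87 for Mmp3, -0.23 for Mmp14, 0.0190 for Adamts4, -0.26 for Timp1 and -0.13 for Timp4. Under the other 20 alternatives 5 to 7 were higher and 0 lower, and Mmp3, Mmp9, Adamts1, Adamts9 and Timp1 passed in each. Mmp14 lost its call in 12 of these (adjusted p 0.0290 to 0.304) and Timp2 in 7 (0.00630 to 0.605), both among them with the 1.2-fold threshold, the 4 libraries whose labels agree and the oligodendrocyte covariate. With the replicate block Mmp14 was not called (log2 fold change 0.43, adjusted p = 0.106) and 6 genes were higher in place of 7; the block changed no other call of the set. The block used the replicate numbers in the titles, which in prefrontal cortex are not the accession-order numbers used above and come from titles of which 4 contradict the column names. Those numbers did not pair the libraries: libraries with the same title number correlated at -0.20 to -0.04 in prefrontal cortex and -0.19 to 0.55 in hippocampus, and 0 of 8 and 2 of 12 libraries correlated best with their own title number. Apart from the grouping by title, changes of sign were seen for values that had not passed the test. With the 4 agreeing libraries Timp4 was -0.0392, and leaving out single libraries gave -0.0880 to 0.190. With the oligodendrocyte covariate Adamts4 was 0.19 and Timp3 0.0538 in prefrontal cortex, and Mmp9 0.0480 and Mmp14 -0.0068 in hippocampus. Without the libraries of high Ttr, hippocampal Adamts1 was 0.0089. Leaving out single hippocampal libraries gave -0.0578 to 0.0780 for Adamts9, -0.0876 to 0.0540 for Mmp9, -0.150 to 0.0336 for Adamts1 and -0.0174 to 0.0942 for Mmp14. In hippocampus 0 genes of the set were called under any of the 24 alternatives. Over all prefrontal cortex genes, the 1.2-fold threshold left 2033 higher and 1922 lower, and the oligodendrocyte covariate 1867 and 1518. Of the related lists, this covariate left 4 of 8 lower calls in the perineuronal matrix, 2 of 6 in the other matrix metalloproteinases and 2 of 5 higher calls in the basement membrane. Leaving out saline replicate 2 or LPS replicate 2 or 3 also left 2 higher calls in the basement membrane, and leaving out saline replicate 4 left 3. When any 1 saline library, or LPS replicate 4, was left out, 2 other matrix metalloproteinases were higher, with more genes passing the filter, and with a filter of 1 CPM 0 were. The 1.2-fold threshold left 0 of 2 higher calls in the perineuronal matrix. At the depth of the hippocampal libraries Mmp3 was not detectable. The cause of these shifts was not tested.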
